A study of Mus musculus with 20 samples.

Results

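The subunits of PI3 kinase and the phosphatase SHIP1 were followed in visceral adipose tissue (VAT) of mice that differed in diet and in the fatty acid supplement of their lineage. The members are 9 genes: the catalytic subunits Pik3ca, Pik3cb, Pik3cd and Pik3cg, the regulatory subunits Pik3r1, Pik3r2, Pik3r3 and Pik3r5, and Inpp5d, which encodes SHIP1. They were taken by name from the 37074 gene names on the array, by a rule that uses no measured value. The members and the gene lists below were, however, chosen with earlier results of these data known. The 9 members have 16 probes of the 56605 on the array. Of these, 14 probes were bright enough to be tested, and every one of the 9 genes had at least 1 of them. Each gene was read by its brightest tested probe, and its other probes are given beside it.

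PI3 kinase is a lipid kinase that makes PIP3, a lipid of the inner face of the cell membrane. PIP3 recruits kinases such as AKT, whose activation in adipocytes follows the insulin receptor and its substrates and leads to glucose uptake and to restraint of lipolysis. Each enzyme pairs a catalytic subunit with a regulatory one that docks it to an activated receptor. The products of Pik3ca (p110alpha) and Pik3cb (p110beta) are found in most cells, while those of Pik3cd (p110delta) and Pik3cg (p110gamma) are found mainly in leukocytes. Pik3r1, Pik3r2 and Pik3r3 encode SH2-domain subunits that bind tyrosine-phosphorylated proteins. Pik3r5 encodes p101, which couples p110gamma to G protein-coupled receptors such as those of chemokines. SHIP1 removes a phosphate from PIP3 and is found mainly in blood cells. In VAT, macrophages are the main leukocytes that accumulate in obesity.

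All animals were male C57bl/6J mice, the F3 generation of lineages whose diet was supplemented with an oil, and the tissue was epididymal fat taken while they fasted. The Ref group (STD Cont in the labels, n = 6) came from the control lineage, given high-oleic sunflower oil, and ate a low-fat diet. The HFoleic group (HFD Cont, n = 6) came from that same control lineage and ate an obesogenic diet rich in fat and sucrose. The HFepa group (HFD O3, n = 8) came from the n-3 PUFA lineage, given fish oil rich in EPA, and ate the same obesogenic diet. The labels give diet and supplement, while sex, strain, generation and fat depot come from the methods, and age is not given in the labels. The high-fat mice of the 2 lineages were matched for body weight when that diet began, and only RNA above an integrity limit set by the authors was hybridized. There was no n-3 PUFA lineage on the low-fat diet, so HFepa vs. Ref differs in diet and in lineage, whose parts cannot be told apart. HFoleic vs. Ref differs in diet alone and HFepa vs. HFoleic in lineage alone.

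One array with a single dye was hybridized per mouse, on 3 slides that each held mice of all 3 groups. The scanner called 66.06% to 71.88% of spots on an array well above background, and 0 spots reached saturation. Arrays correlated at r between 0.959 and 0.996 over the brightest probes of the tested genes. HFepa mice 1 and 6 stood apart from the other 6 HFepa mice in the mean log2 intensity of 10 pan-leukocyte markers, with 12.30 and 11.88 against 10.16 to 10.85. All 11 adipocyte markers were well above background on all 20 arrays. Of 12 markers of epididymis, 11 were on the array and 6 were bright enough to be tested. All values below are log2 median intensities after quantile normalization, without background subtraction. They compare mice for the same probe and cannot rank one gene against another. Differences are log2 fold changes from limma, and adjusted p-values are Benjamini-Hochberg values over all 39390 tested probes.

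In HFoleic vs. Ref, the 4 members of leukocytes rose and 2 of the other 5 fell. The rises were those of Pik3cd, Pik3cg, Pik3r5 and Inpp5d, with log2 fold changes from 0.84 to 1.62. The falls were those of Pik3cb and Pik3r3. Thus 6 of 9 members passed the threshold of 0.05, against a background of 31.8% of the 25618 tested genes. By direction, 4 of 9 were higher against 15.2% of all genes, and 2 of 9 were lower against 16.7%. At an unadjusted p under 0.05 there were 7 of 9, against 42.2%. The values of HFoleic and Ref mice did not overlap for 5 of 9 members, against 14% of all genes. Counted by probe, 10 of the 14 tested member probes were called, against 30.8% of all probes. Of those 10, 8 were among the 11 member probes well above background on all 20 arrays, and the other 2 passed the brightness filter mainly on arrays of the high-fat groups, so that nothing is drawn from their calls. The median log2 fold change was 0.14 over the members and -0.04 over all tested genes. The mean log2 intensity of 10 pan-leukocyte markers was higher as well, at 11.69 ± 0.48 (SD, n = 6) in HFoleic and 10.25 ± 0.24 (SD, n = 6) in Ref, with no overlap. In bulk tissue more cells of a type and more RNA per cell cannot be told apart, and the part of leukocyte content in the rises of the members was not tested. The authors estimated cell types from their expression data with the CIBERSORT software and reported that the main types did not differ between samples. For the lineages they proposed a difference in activation state. That estimate was not repeated here.

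**Figure D1:**
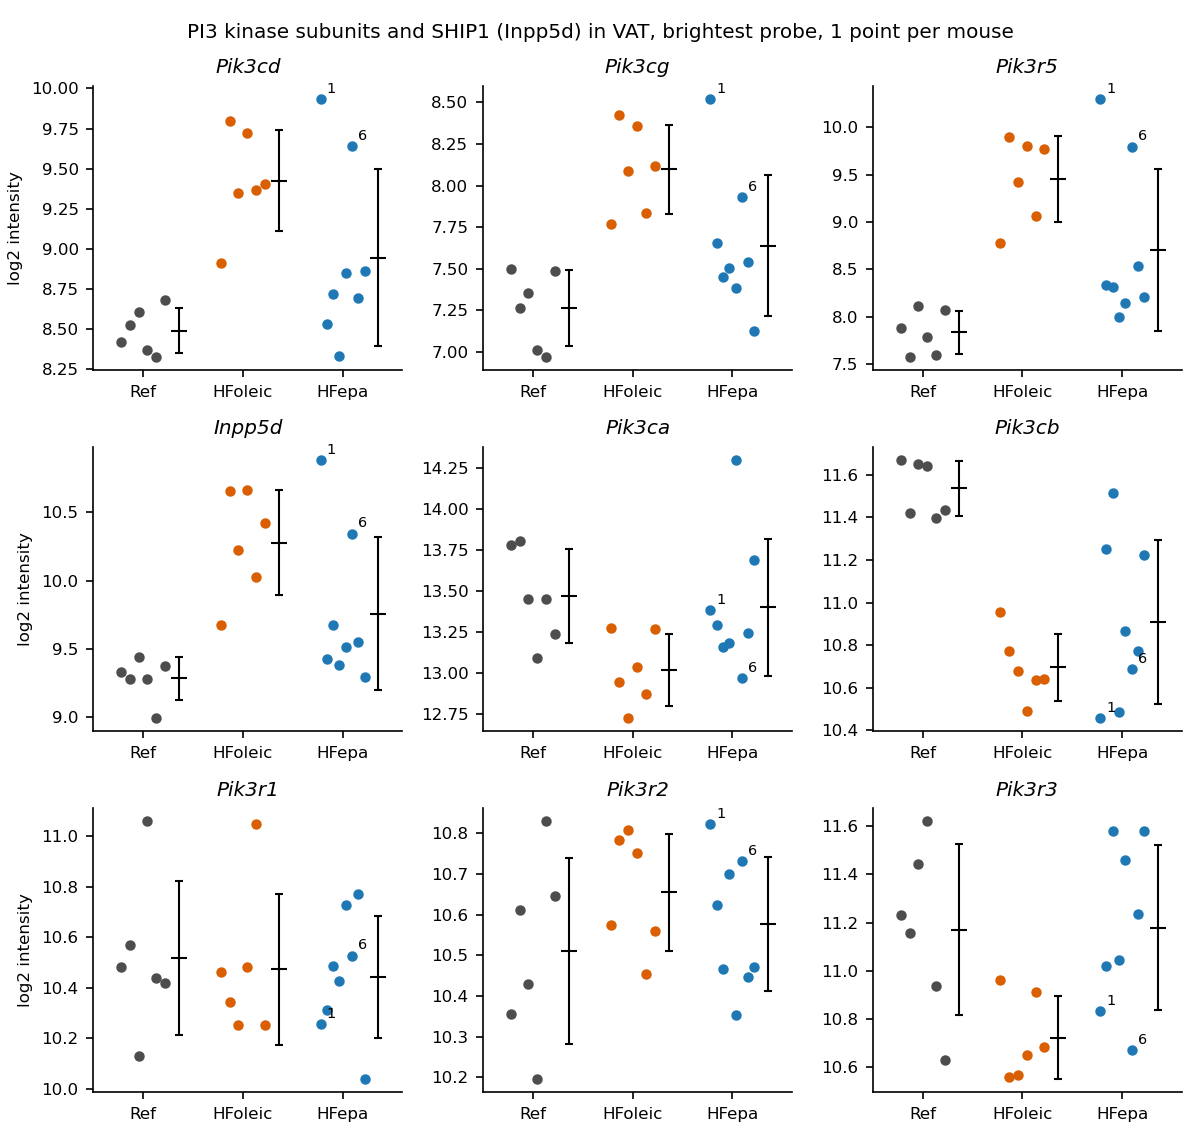
Each point is the log2 median intensity of 1 mouse at the brightest probe of the gene (vertical axis, its range set per panel) in the Ref (n = 6), HFoleic (n = 6) and HFepa (n = 8) groups, with the mean and SD as a bar on the right of each group and HFepa mice 1 and 6 numbered. The HFoleic points of Pik3cd, Pik3cg, Pik3r5 and Inpp5d lie above every Ref point, those of Pik3cb lie below every Ref point, and HFepa mouse 1 is the highest of all 20 mice for these 4 leukocyte genes.

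Pik3r5, the p101 adaptor of p110gamma, had the largest difference among the members. Its log2 intensity in Ref mice had a lowest value of 7.57, a median of 7.84 and a highest of 8.11. In HFoleic mice these were 8.78, 9.60 and 9.90, and in HFepa mice 8.00, 8.32 and 10.30. Every HFoleic mouse was above every Ref mouse, and the HFepa group overlapped with both. Pik3r5 differed by 1.62 on the log2 scale in HFoleic vs. Ref (SE 0.33, adjusted p = 0.00157), which is 3.07-fold. The mean was 7.84 ± 0.23 (SD, n = 6) in Ref and 9.45 ± 0.45 (SD, n = 6) in HFoleic.

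Pik3cg, the catalytic partner of p101, had a lowest, median and highest log2 intensity of 6.97, 7.31 and 7.50 in Ref. They were 7.77, 8.10 and 8.43 in HFoleic and 7.13, 7.52 and 8.52 in HFepa. The HFoleic and Ref mice were again apart, and HFepa mouse 1 ranked first of all 20. Pik3cg was higher by 0.84 in HFoleic vs. Ref (SE 0.18, adjusted p = 0.00222), or 1.78-fold.

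Pik3cd, the catalytic subunit that serves antigen, cytokine and growth factor receptors of leukocytes, had a lowest, median and highest log2 intensity of 8.32, 8.47 and 8.68 in Ref. They were 8.91, 9.39 and 9.80 in HFoleic and 8.34, 8.78 and 9.93 in HFepa. HFoleic and Ref mice did not overlap. Their log2 difference was 0.94 (SE 0.22, adjusted p = 0.00335), or 1.91-fold.

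The product of Inpp5d acts against these kinases, since SHIP1 consumes the PIP3 that they make. Its lowest, median and highest log2 intensity was 8.99, 9.31 and 9.44 in Ref, 9.67, 10.32 and 10.66 in HFoleic, and 9.29, 9.53 and 10.88 in HFepa. No HFoleic mouse fell within the range of Ref. Inpp5d was higher by 0.99 on the log2 scale in HFoleic vs. Ref (SE 0.23, adjusted p = 0.00323), or 1.99-fold. The gene of the phosphatase and the genes of the leukocyte kinase were thus higher in the same group.

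These 4 rises kept their direction and their call under all 13 other settings and when any of the 20 arrays was left out. On the 3 slides taken one at a time, the difference of HFoleic and Ref means lay between 1.39 and 1.97 for Pik3r5, 0.70 and 1.18 for Pik3cg, 0.87 and 1.27 for Pik3cd, and 0.91 and 1.33 for Inpp5d. Slide 2 holds 1 HFoleic mouse only. Fitted with the slide as a block, the log2 fold changes were 1.63, 0.84, 0.93 and 1.00 in that order.

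The other probes of Pik3cd and Pik3r5 gave smaller differences. In HFoleic vs. Ref the second Pik3cd probe rose by 0.81 on the log2 scale (adjusted p = 0.0019). Probe 3 of Pik3cd had 0.37 and was well above background on 2 of 6 arrays in Ref, 6 of 6 in HFoleic and 7 of 8 in HFepa. Probe 4 had 0.12 (adjusted p = 0.186) and was well above background on 12 of 20 arrays. Probe 2 of Pik3r5 was well above background on 0 of 6 arrays in Ref, 4 of 6 in HFoleic and 3 of 8 in HFepa. For a ratio, each Ref array was set at the lowest signal called well above background on it where its own signal was lower. The signal of this probe in HFoleic was then 1.11-fold that in Ref. HFoleic arrays not well above background kept their measured signal, so that this is no strict bound and nothing is drawn from it. Probe 3 of Pik3r5 and probe 2 of Pik3r2 were not well above background on any array and were not tested.

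The 60-base probes that cross an exon junction are shown because they read spliced RNA, and because 3 of the 4 are the dim or untested probes just named. They stretch over 197 (Pik3cd), 238 (Pik3r5), 1043 (Pik3r1) and 260 (Pik3r2) bases of mm9, the build of the array files, so that an intron lies within each. Only the Pik3r1 probe was well above background on all 20 arrays. Each is written 5′ to 3′ in lower case, with nothing marked.
Pik3cd probe, chr4:149027949-149028145, minus strand: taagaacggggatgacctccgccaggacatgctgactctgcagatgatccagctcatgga
Pik3r5 probe, chr11:68307758-68307995, plus strand: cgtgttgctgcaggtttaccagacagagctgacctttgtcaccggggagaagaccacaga
Pik3r1 probe, chr13:102459406-102460448, minus strand: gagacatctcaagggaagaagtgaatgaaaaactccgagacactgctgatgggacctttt
Pik3r2 probe, chr8:73296273-73296532, minus strand: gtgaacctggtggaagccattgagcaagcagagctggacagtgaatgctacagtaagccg

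The brightest probes lie within 1 stretch of the genome each. On mm9 they are at chromosome 4, 149023282 to 149023341 for Pik3cd, chromosome 12, 32860765 to 32860824 for Pik3cg, chromosome 11, 68310906 to 68310963 for Pik3r5 and chromosome 1, 89616958 to 89617017 for Inpp5d. Those of the members found in most cells are at chromosome 3, 32364747 to 32364806 for Pik3ca, chromosome 9, 98939114 to 98939173 for Pik3cb, chromosome 8, 73292173 to 73292232 for Pik3r2 and chromosome 4, 115975600 to 115975659 for Pik3r3. The Pik3r1 probe is the junction probe above. Exon and UTR annotation of mm9 was not used here.

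Promoters are shown for the 4 members that rose together in HFoleic mice and for Pik3cb, the member with the largest fall. They come from RefSeq on GRCm38.p6, a later build than that of the probes, and all 9 members have at least 1 of the 15 promoters found. Windows run from 250 bases before to 50 bases after the start, and the first 260 bases are printed 5′ to 3′. They were searched on both strands for GAGGAA, the core of sites of PU.1, an ETS factor of myeloid and B cells, and for GGGCGG, the GC box bound by SP factors. They were also searched for GTAAACA, a FOXO site, and TGACGTC, a CRE. Capitals mark any of these letters or their reverse complements, which do not overlap one another in the lines below.
Inpp5d promoter, chr1:87620062-87620321, plus strand: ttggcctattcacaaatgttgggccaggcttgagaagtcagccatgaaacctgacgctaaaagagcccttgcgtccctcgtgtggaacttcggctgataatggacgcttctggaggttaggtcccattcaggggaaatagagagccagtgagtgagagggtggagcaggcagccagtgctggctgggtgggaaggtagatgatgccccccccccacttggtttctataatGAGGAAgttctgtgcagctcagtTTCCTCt
Pik3cg promoter, chr12:32208650-32208909, minus strand: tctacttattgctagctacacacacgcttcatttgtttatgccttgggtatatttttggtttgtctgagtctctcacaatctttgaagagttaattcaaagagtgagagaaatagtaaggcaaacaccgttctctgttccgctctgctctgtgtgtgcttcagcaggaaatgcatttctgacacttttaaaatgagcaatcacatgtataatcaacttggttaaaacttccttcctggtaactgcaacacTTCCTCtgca
Pik3r5 promoter, chr11:68431875-68432134, plus strand: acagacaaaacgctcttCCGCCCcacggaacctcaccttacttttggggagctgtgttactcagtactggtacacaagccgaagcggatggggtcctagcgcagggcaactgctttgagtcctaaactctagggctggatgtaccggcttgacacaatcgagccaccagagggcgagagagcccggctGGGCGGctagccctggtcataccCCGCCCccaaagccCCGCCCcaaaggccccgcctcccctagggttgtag
Pik3cd promoter, chr4:149698699-149698958, minus strand: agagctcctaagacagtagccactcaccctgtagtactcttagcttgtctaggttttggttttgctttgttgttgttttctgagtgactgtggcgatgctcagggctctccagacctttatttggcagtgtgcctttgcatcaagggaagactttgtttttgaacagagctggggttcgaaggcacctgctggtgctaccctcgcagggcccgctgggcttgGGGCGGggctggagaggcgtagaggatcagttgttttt
Pik3cb promoter, chr9:99140202-99140461, minus strand: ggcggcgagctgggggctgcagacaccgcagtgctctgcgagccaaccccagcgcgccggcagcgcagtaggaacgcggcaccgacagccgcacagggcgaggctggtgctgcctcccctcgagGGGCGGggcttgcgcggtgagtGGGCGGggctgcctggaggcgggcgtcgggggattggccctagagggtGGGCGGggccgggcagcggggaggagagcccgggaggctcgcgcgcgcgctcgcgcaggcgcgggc

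The printed windows differ in base composition and motifs. The Inpp5d window held the PU.1 core, on either strand, at -20 and at 4 from the start, and the first Pik3cg window at 1 and at 38, the latter beyond the printed bases. Neither held a GC box. The Pik3r5 window held 4 GC boxes and no PU.1 core, and the first of 3 Pik3cd windows held 1 GC box. The Pik3cb window held 4 GC boxes, 1 of them beyond the printed bases, and was 79% G and C over its 300 bases, against 40.7% for the first Pik3cg window. Over all members, the PU.1 core occurred in windows of Pik3cg, Pik3r3 and Inpp5d, and the GC box in windows of the 7 members other than Pik3cg and Inpp5d. Counted by window, 5 of the 15 member windows held the PU.1 core and 10 of 15 a GC box, several being windows of the same gene. Of 32851 promoter windows in the table, 28.28% held the PU.1 core, 35.66% a GC box, 3.65% the FOXO site and 3.21% the CRE. The FOXO site occurred in the second Pik3cg window and the CRE in none of the 15. The members that rose in HFoleic were not alike in these letters, and a match is not a site of binding.

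The catalytic subunits found in most cells did not rise. Pik3cb had a lowest, median and highest log2 intensity of 11.40, 11.54 and 11.67 in Ref. They were 10.49, 10.66 and 10.96 in HFoleic and 10.46, 10.82 and 11.51 in HFepa. All 6 HFoleic mice were below all 6 Ref mice, while HFepa mice spread over both ranges. HFoleic vs. Ref gave a log2 fold change of -0.84 (SE 0.15, adjusted p = 0.000702), a ratio of 0.559, and it lay between -0.87 and -0.77 on the 3 slides. The second Pik3cb probe, which lies close by on chromosome 9 (98940005 to 98940064), fell as well, with a log2 fold change of -0.50 (adjusted p = 0.0299), although its groups overlapped.

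Pik3ca, the main catalytic subunit of insulin signalling, had a lowest, median and highest log2 intensity of 13.09, 13.45 and 13.81 in Ref. They were 12.72, 12.99 and 13.27 in HFoleic and 12.97, 13.27 and 14.30 in HFepa. The HFoleic mice were mostly low and overlapped with Ref, and HFepa mouse 5 was the highest of all 20. HFoleic vs. Ref gave -0.45 (SE 0.18, 95% interval -0.83 to -0.07, adjusted p = 0.0653) and missed the threshold. Under a slide block Pik3ca had -0.54 (adjusted p = 0.00281) and passed. Over all 13 other settings the adjusted p ran from 0.00281 to 0.126, and over 20 fits with an array left out from 0.0165 to 0.141.

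Of the 3 SH2-domain subunits, Pik3r3 alone passed the threshold in HFoleic vs. Ref. Pik3r3 (p55) had a lowest, median and highest log2 intensity of 10.63, 11.20 and 11.62 in Ref, 10.56, 10.67 and 10.96 in HFoleic, and 10.67, 11.14 and 11.58 in HFepa. All HFoleic mice were below the Ref median, and their range overlapped with that of Ref. Pik3r3 fell by 0.45 on the log2 scale in HFoleic vs. Ref (SE 0.17, adjusted p = 0.0485), and this call was lost under 5 of 13 other settings and with 11 of 20 arrays left out, the adjusted p reaching 0.118. Its sign held in all of them and on all 3 slides (-0.57 to -0.43).

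Pik3r1, which encodes p85alpha and its shorter forms, had a lowest, median and highest log2 intensity of 10.13, 10.46 and 11.06 in Ref. They were 10.25, 10.40 and 11.05 in HFoleic and 10.04, 10.46 and 10.77 in HFepa. The ranges of the 3 groups overlapped almost wholly. HFoleic vs. Ref gave -0.04 (95% interval -0.36 to 0.28), so that a change as large as that of Pik3cb lies outside the interval. Pik3r2, which encodes p85beta, ran from 10.19 to 10.83 in Ref, 10.45 to 10.81 in HFoleic and 10.35 to 10.82 in HFepa. Its log2 fold change was 0.14 (95% interval -0.07 to 0.36, adjusted p = 0.312). A miss of the threshold does not show that the groups are alike.

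**Figure D2:**
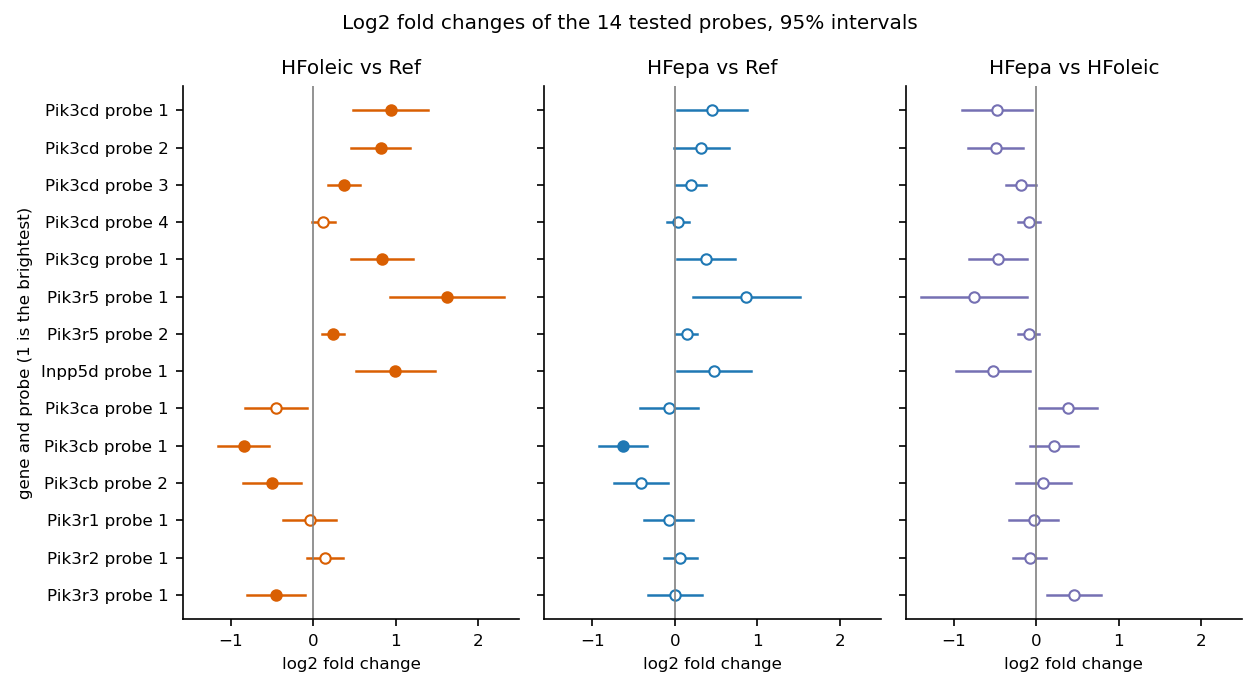
Log2 fold changes (horizontal axis) with 95% intervals for the 14 tested probes (vertical axis, 1 being the brightest of a gene) in the 3 comparisons, filled where the adjusted p over all tested probes was under 0.05. Filled points are frequent in HFoleic vs. Ref, a single one (Pik3cb, -0.63) is left in HFepa vs. Ref, and none is filled in HFepa vs. HFoleic.

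In HFepa vs. Ref, 1 of 9 members was called, against 2.46% of all tested genes. It was Pik3cb, with a log2 fold change of -0.63 (SE 0.14, adjusted p = 0.0281), against 1.42% of all genes called lower. No member was called higher, against 1.03%, and 1 of 14 member probes was called, against 2.26% of all probes. The mean of Pik3cb was 10.91 ± 0.38 (SD, n = 8) in HFepa and 11.54 ± 0.13 (SD, n = 6) in Ref. Groups overlapped for every member, while 1.04% of all genes were apart. The Pik3cb call was lost under 3 of 13 other settings and with 6 of 20 arrays left out (HFepa mice 1 and 6 and Ref mice 3, 4, 5 and 6), with log2 fold changes from -0.67 to -0.52 and from -0.72 to -0.56. Under a slide block Pik3cb had -0.62 (adjusted p = 0.0425). The second Pik3cb probe had -0.41 (adjusted p = 0.146).

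The leukocyte members had log2 fold changes of 0.87 (Pik3r5), 0.47 (Inpp5d), 0.46 (Pik3cd) and 0.38 (Pik3cg) in HFepa vs. Ref. Their adjusted p-values were between 0.121 and 0.215, and none was called. Without HFepa mouse 1 they were 0.64, 0.31, 0.31 and 0.25 in that order. Their 95% intervals began just above 0, from 0.02 for Pik3cg to 0.22 for Pik3r5. Of the 9 members, 5 had an unadjusted p under 0.05, against 21.6% of all genes. Pik3ca, Pik3r1, Pik3r2 and Pik3r3 had log2 fold changes between -0.07 and 0.07. The comparisons with Ref use the same 6 Ref mice and are not independent of each other.

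In HFepa vs. HFoleic, 0 of 9 members were called by limma, against 0% of all genes by their brightest probe. By probe, 0 of 14 were called, against 0.00254% of all probes. At an unadjusted p under 0.05 there were 6 of 9 members, against 20.8% of all genes. These were Pik3r5 (-0.75, 95% interval -1.39 to -0.11), Inpp5d (-0.52, -0.97 to -0.07), Pik3cd (-0.48, -0.90 to -0.06), Pik3cg (-0.46, -0.81 to -0.11), Pik3r3 (0.46, 0.13 to 0.78) and Pik3ca (0.38, 0.03 to 0.73). Their adjusted p-values lay between 0.137 and 0.209. The 4 leukocyte members were thus lower in the HFepa mean, and Pik3ca and Pik3r3 higher, with no member past the threshold. Groups overlapped for all 9, and 0.355% of all genes were apart.

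This comparison turned on single mice. HFepa mice 1 and 6 were the highest of their group for Pik3cd, Pik3cg, Pik3r5 and Inpp5d. For Pik3r5 they had log2 intensities of 10.30 and 9.80, and the other 6 HFepa mice had 8.00 to 8.54. For Inpp5d they had 10.88 and 10.34, against 9.29 to 9.67. For Pik3cd they had 9.93 and 9.64, against 8.34 to 8.86, and for Pik3cg 8.52 and 7.93, against 7.13 to 7.65. They were also the lowest of their group for Pik3r3, at 10.83 and 10.67 against 11.02 to 11.58. Without HFepa mouse 1, 4 members were called in HFepa vs. HFoleic, against 7.72% of all genes. These were Pik3cd (-0.62), Pik3cg (-0.59), Pik3r5 (-0.98) and Inpp5d (-0.68), with adjusted p-values between 0.0271 and 0.0346. With any other array left out the count was 0. The difference of Pik3ca was 0.25 in place of 0.38 without HFepa mouse 5. With array weights 5 members were called, Pik3cd, Pik3cg, Pik3r5, Inpp5d and Pik3r3 (0.46), against 11.4% of all genes. With a slide block 1 member was called, Pik3ca (0.46, adjusted p = 0.0392), against 3.17%.

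For the 4 leukocyte members the order of the group means was Ref, HFepa and HFoleic, from low to high. Neighbours in that order did not pass the threshold, and only its ends did. For Pik3cb the order was HFoleic, HFepa and Ref, and both high-fat groups were below Ref beyond the threshold, without a call between them (0.21, 95% interval -0.08 to 0.50). For Pik3ca and Pik3r3 the means of HFepa (13.40 ± 0.42 and 11.18 ± 0.34, SD, n = 8) were close to those of Ref (13.47 ± 0.29 and 11.17 ± 0.35, SD, n = 6).

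Leukocyte markers moved with these genes. The mean log2 intensity of the 10 pan-leukocyte markers, all above background on every array, ran from 9.87 to 10.57 in Ref, 10.91 to 12.17 in HFoleic and 10.16 to 12.30 in HFepa. In HFoleic vs. Ref 9 of the 10 rose, which is 90% against 31.8% of all genes called. Among them were Cd52 (95% interval 0.55 to 2.45), Coro1a (1.00) and Arhgdib (1.02), and the list median was 1.34. Macrophage markers ran from 11.12 to 11.65, 11.88 to 12.88 and 10.99 to 12.84 in the same order of groups. Of 12, 9 rose, among them Lyz2 (1.60), Csf1r (1.02) and Cd68 (2.41). Cd163, a marker of resident macrophages, fell (-0.54), so that 83.3% of the list was called. Of 10 markers of lipid-associated macrophages 8 rose (80% called), with a list median of 3.09. Ptprc, which encodes CD45, was the sole pan-leukocyte marker not called (0.19, adjusted p = 0.167). In HFepa mice 1 and 6 the macrophage level was 12.84 and 12.55, and in the other 6 HFepa mice 10.99 to 11.79.

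Adipocyte markers ran from 15.75 to 16.10 in Ref, 15.48 to 15.97 in HFoleic and 15.49 to 15.96 in HFepa. Of 11, 5 fell and 1 rose in HFoleic vs. Ref, which is 54.5% against 31.8% of all genes called. The rise was that of Lep, the gene of leptin (1.13). Cfd (adipsin) fell (-0.50), while Fabp4 (0.02) and Cidec (0.02) were not called. HFepa mice 1 and 6 had adipocyte levels of 15.49 and 15.68, below the 15.85 to 15.96 of the other 6. The part of adipocyte content in the falls of Pik3cb and Pik3r3 was not tested. Of 10 markers of adipose progenitors and fibroblasts 4 rose, which is 40%, near the share of all genes. Cd2 (0.52) was called of 8 T cell markers tested (12.5%), and Tnp2 (-0.25) of 6 testis markers (16.7%). Of 7 neutrophil markers S100a8 (2.46) and Csf3r (-0.24) were called (28.6%, close to the share of all genes). None was called of 7 B cell, 7 mast cell, 8 endothelial, 6 mesothelial and 6 epididymis markers. In HFepa vs. Ref the calls in the 13 lists were Cytip (0.79), a pan-leukocyte marker, and Fabp5 (0.75), a marker of lipid-associated macrophages. Each was 1 of 10 genes in its list, against 2.46% of all genes. Csf3r, Tnp2, Cytip and Fabp5 were named after their values were seen.

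Pooled over the 3 groups, the leukocyte members varied together around their group means. With group means taken away, Pearson r over the 20 arrays was 0.96 between Pik3r5 and Inpp5d, 0.93 between Pik3cd and each of Pik3r5 and Inpp5d, 0.91 between Pik3cg and Inpp5d, 0.88 between Pik3cg and Pik3r5 and 0.79 between Pik3cd and Pik3cg. Members found in most cells were related to these in other ways. Pik3cb had r between -0.47 and -0.42 with them and Pik3r3 between -0.65 and -0.48, and the lowest r of any pair was -0.82, between Pik3r2 and Pik3r3. Pik3cb and Pik3r3 had 0.61. All values of a mouse come from 1 array and share its RNA quality and cell content, so these are descriptions.

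**Figure D3:**
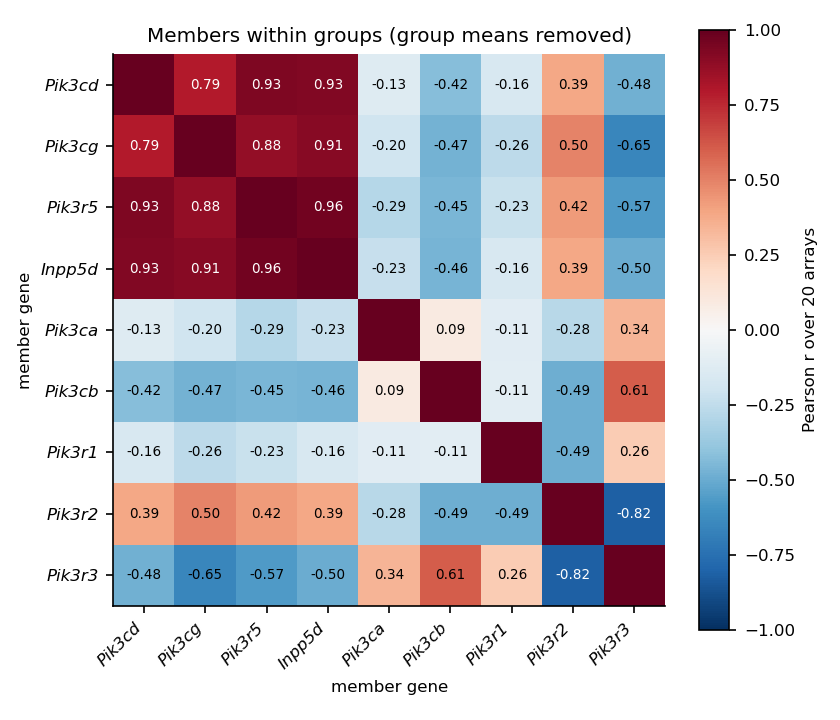
Pearson r between the members over 20 arrays after the group means were removed, with the gene on each axis and the colour running from -1 to 1. The 4 leukocyte members form a block from 0.79 to 0.96 at the upper left, and Pik3r2 with Pik3r3 has the lowest value at -0.82.

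With the pan-leukocyte level, again with group means taken away, r over the 20 arrays was 0.96 for Inpp5d, 0.95 for Pik3r5, 0.92 for Pik3cg and 0.88 for Pik3cd (Spearman's rho 0.92, 0.92, 0.92 and 0.82), as a description. On that scale the 2 mice farthest from the median were HFepa mice 1 and 6, and without them r was 0.91, 0.87, 0.88 and 0.71 (n = 18). Pik3cb and Pik3r3 had -0.55 and -0.59 with it, and -0.34 and -0.39 without those mice. Among the other 6 HFepa mice r was 0.81 for Pik3cg, 0.57 for Pik3r5, 0.44 for Inpp5d and -0.37 for Pik3cd, so that the relation of Pik3cd in HFepa rested on mice 1 and 6. In Ref r was between 0.36 and 0.78 for these 4 genes, and in HFoleic between 0.94 and 0.99.

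**Figure D4:**
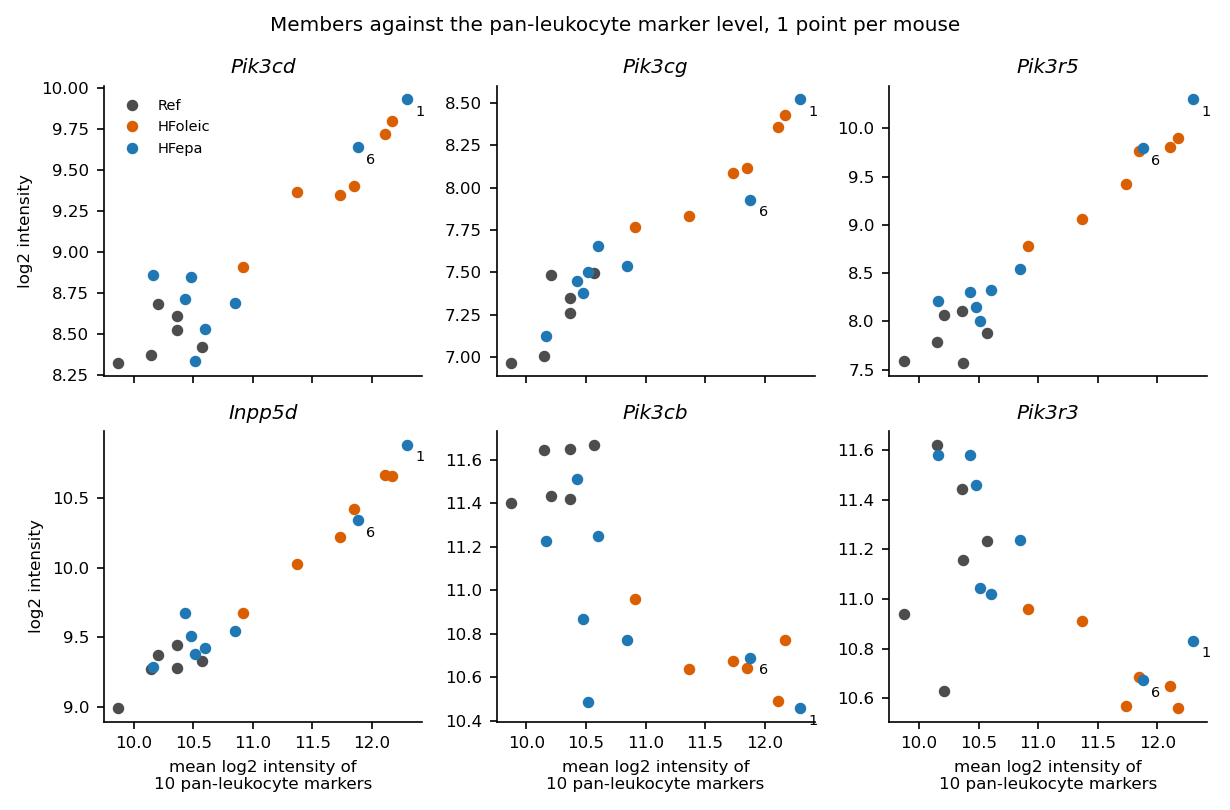
Log2 intensity of 6 members at their brightest probe (vertical axis) against the mean log2 intensity of 10 pan-leukocyte markers (horizontal axis), 1 point per mouse, with HFepa mice 1 and 6 numbered. Points of Pik3cd, Pik3cg, Pik3r5 and Inpp5d climb with the marker level across groups, mice 1 and 6 lie among or above the HFoleic mice, and those of Pik3cb and Pik3r3 lie lower at high marker levels.

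The genes most like each member within groups were found among 25603 tested genes with a value on all 20 arrays. For Inpp5d they were Fyb (r = 0.98), Prex1 (0.98) and Ctsz (0.98), for Pik3r5 Arhgap9 (0.98), Ly9 (0.98) and Adgre1 (0.98), and for Pik3cd Fes (0.96), Prex1 (0.95) and Creg1 (0.95). For Pik3cg they were the transcript ENSMUST00000118082 (0.96), Tlr2 (0.96) and Emp3 (0.95). For Pik3cb they were Fam181b (0.89), Dnajc27 (0.88) and Lrrc58 (0.88), for Pik3r2 Cln6 (0.92), Pdxk (0.89) and Cndp2 (0.87), and for Pik3r3 BF123512 (0.92), Adamts4 (0.90) and Lrrc32 (0.90). Pik3r1 had the lowest first r, with Taok1 (0.80), Rnu1b1 (0.78) and C430003N24Rik (0.77). Pik3ca was most like Stra6 (0.98), B020031M17Rik (0.98) and Il22ra1 (0.97). HFepa mouse 5 had the highest Pik3ca of all 20 mice (14.30, the next HFepa mouse 13.69). The likeness of Pik3ca was not taken without that mouse, so these r values may rest on 1 array.

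The other genes of the pathway were taken from 5 lists, and all 88 genes in them were tested. In HFoleic vs. Ref 25 rose and 16 fell, which is 46.6% against 31.8% of all genes. In HFepa vs. Ref 1 of 88 was called (1.14% against 2.46%), and in HFepa vs. HFoleic 0 of 88.

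Downstream of PIP3 in leukocytes, 12 of 14 genes (85.7% against 31.8% of all genes) rose in HFoleic vs. Ref and none fell, with a list median of 1.04. Pan-leukocyte markers rose with them, and their part was not tested. Prex1, an exchange factor for RAC that PIP3 and G protein subunits activate, rose by 0.99 (SE 0.20, adjusted p = 0.00138). Plcg2, a phospholipase of immune receptors, rose by 1.08 (adjusted p = 0.00225), and Tec, a kinase recruited by PIP3, by 1.22 (adjusted p = 0.0027). In HFepa vs. Ref the list median was 0.51 with no gene called, and in HFepa vs. HFoleic it was -0.51.

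Of 8 other subunits and adaptors, 2 rose in HFoleic vs. Ref. They were Pik3ap1, an adaptor of B cells and macrophages (1.09, SE 0.22, adjusted p = 0.00144), and Pik3r6, the other regulatory subunit of p110gamma (0.50, SE 0.12, adjusted p = 0.00504). The list median was 0.06, and 25% of the list was called against 31.8% of all genes. Of 18 phosphatases of phosphoinositides 4 rose and 1 fell, with a median of 0.08. This is 27.8% of the list, below the 31.8% of all genes. Inpp4b (0.39), Mtm1 (0.26) and Ocrl (0.17) rose, the fourth being Inpp5f (0.27), named after its value was seen, and Mtmr1 (-0.38) fell.

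Upstream, 8 of 18 receptors and adaptors fell and 4 rose in HFoleic vs. Ref (66.7% called against 31.8% of all genes), with a list median of -0.31. Irs2, an insulin receptor substrate, fell by 0.99 on the log2 scale (SE 0.19, adjusted p = 0.00127), from 13.45 ± 0.17 (SD, n = 6) in Ref to 12.46 ± 0.38 (SD, n = 6) in HFoleic. It had 0.63 (95% interval 0.25 to 1.01, adjusted p = 0.12) in HFepa vs. HFoleic. Cblb, a ubiquitin ligase, fell (-0.48, adjusted p = 0.00129), as did Sh2b2, an adaptor of the insulin receptor (-0.79, adjusted p = 0.00375). The other 5 that fell, named after their values were seen, were Grb10 (-0.84), Irs1 (-0.67), Insr, the insulin receptor itself (-0.51), Kit (-0.43) and Gab2 (-0.28). Grb2 (0.54), Csf1r, the macrophage growth factor receptor, which is also in the macrophage list (1.02), and Cbl (0.40) rose. The fourth that rose, Gab1 (0.34), was named after its value was seen. Adipocyte markers moved as well, 5 of 11 being lower and 1 higher in the same comparison, and their part in these falls was not tested.

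Downstream in the AKT and mTOR branch, 3 of 30 genes rose and 7 fell in HFoleic vs. Ref, with a list median of -0.07. This is 33.3% of the list, close to the 31.8% of all genes, so that the genes below are single values and not a result about the branch. Akt2, the AKT of insulin action in adipocytes, fell (-0.36, SE 0.12, adjusted p = 0.0231). Akt1 (0.02, 95% interval -0.11 to 0.15) was not called. Sgk1 (-1.21, adjusted p = 0.00165), a kinase related to AKT, and Eif4ebp1 (-0.38, adjusted p = 0.0168), a translation repressor that mTOR controls, fell. Deptor (0.80), Rptor (0.29) and Mapkap1 (0.39), all parts of mTOR complexes, rose. Deptor was the sole gene of the 5 lists called in HFepa vs. Ref (0.54, SE 0.11, adjusted p = 0.0217). With the compared groups only 0 of the 88 were called, against 0.425% of all genes. The other 4 that fell in HFoleic, named after their values were seen, were Foxo1 (-0.19), Pdpk1 (-0.22), Phlpp2 (-0.26) and Rictor (-0.29).

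Foxo3, a transcription factor that AKT keeps out of the nucleus, had log2 fold changes of 0.09 (95% interval -0.08 to 0.27) in HFoleic vs. Ref, 0.16 (adjusted p = 0.241) in HFepa vs. Ref and 0.07 (-0.09 to 0.23) in HFepa vs. HFoleic. Gsk3b, a kinase that AKT inhibits, had 0.05 (-0.13 to 0.23), 0.03 (-0.14 to 0.20) and -0.02 (-0.19 to 0.15). Akt2 had 0.25 (0.02 to 0.47, adjusted p = 0.209) in HFepa vs. HFoleic, and Akt1 had a 95% interval of -0.12 to 0.12. None of these passed the threshold in a comparison with HFepa mice. All are values of the brightest probe of a gene, and other probes of these genes are not given here. The authors reported lower Foxo3 in HFepa than in HFoleic, on the array before adjustment and by RT-qPCR at the looser of their p thresholds. By RT-qPCR they also reported it lower than in Ref. The direction at the brightest probe differs from both reports, and the reason was not tested. For HFepa vs. HFoleic the authors further described higher Akt and Pi3k genes and lower Gsk3 beta, and in their discussion lower Akt1 and Akt2. They also found gene sets of PI3K, AKT and mTOR signalling raised in HFepa vs. Ref. In the main fit here, no member or pathway gene was called between the high-fat groups.

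**Figure D5:**
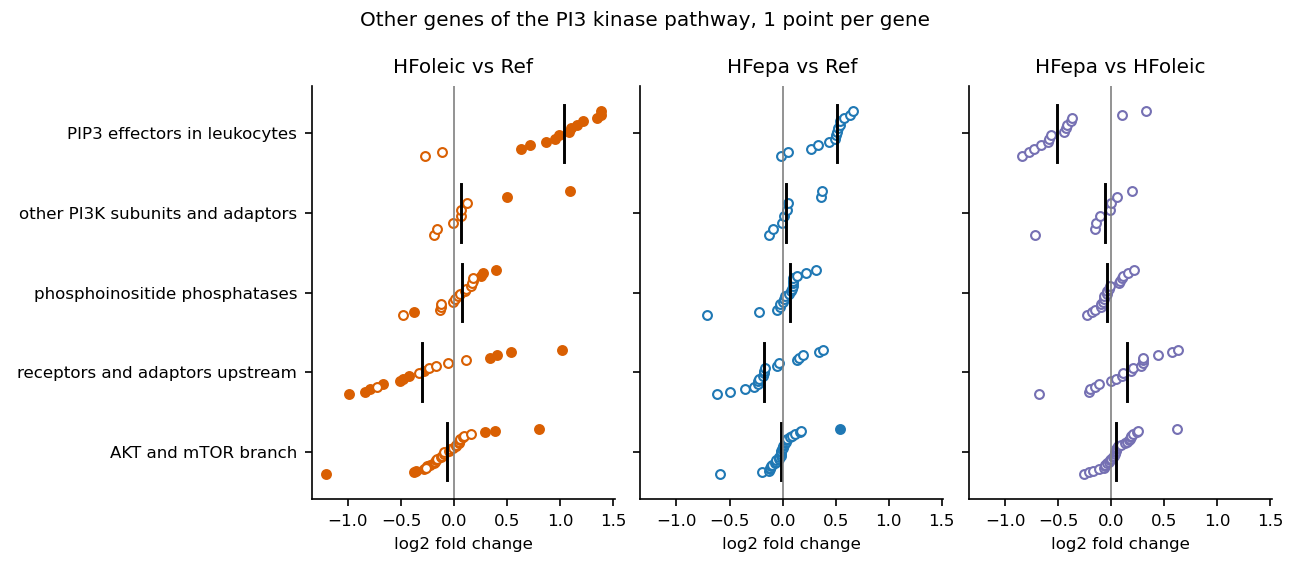
Log2 fold change (horizontal axis) of each of the 88 pathway genes, 1 point per gene in 5 lists (vertical axis), filled where the adjusted p over all tested probes was under 0.05, with a black line at the median of each list. In HFoleic vs. Ref the points of the leukocyte effectors lie to the right (median 1.04), and in HFepa vs. Ref a single point, Deptor at 0.54, is filled.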

How the data were processed

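The authors hybridized Cy3-labelled cRNA of 1 mouse to each 1-colour Agilent SurePrint G3 mouse array and, per the labels, read the images with Agilent Feature Extraction 10.10.1.1. The deposited scanner files hold spot intensities, of which the median signal (no background subtraction) was used. Their own log2 values, which the authors filtered and quantile-normalized before deposit, served as an alternative. Probe names and mm9 coordinates are those of the scanner files.

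Of 62976 spots, 59305 were not controls, and spots that the scanner marked as outliers were left out, which emptied 24 probe values and none of a member. Median signals were log2-transformed, quantile-normalized and averaged per probe, and probes well above background on at least 6 of 20 arrays were kept. One limma model (limma 3.58.1, R 4.3.3) with a mean per group gave 3 contrasts, with Benjamini-Hochberg adjustment over 39390 probes and a threshold of 0.05, and a gene was read by its brightest probe. The ± values beside group means are SD between mice of a group. The p-values rest on a variance per probe, pooled over the mice of all 3 groups and moderated across probes by limma. That variance is not the SD of any single group. Array number and signal over background limit the precision.

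Members, lists and tests were chosen with earlier results of these data known. Genes outside the members were named by a rule: Akt1, Akt2, Foxo3, Gsk3b and Irs2, the 3 genes of smallest p in each direction per pathway list in HFoleic vs. Ref, any called in the other comparisons, and, of markers, the 3 brightest of the pan-leukocyte, macrophage and adipocyte lists and those called against their list. Exceptions are stated, and some genes are not reported here. Likeness is Pearson r over 20 arrays after group means were removed. Leukocyte members are Pik3cd, Pik3cg, Pik3r5 and Inpp5d.

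Alternatives were the processed signal scaled to the 75th percentile, normexp (offset 50), median centring, the authors' values, no filter, a filter on a whole group, marked spots kept, slide, replicate number or array weights in the fit, an intensity trend, compared groups only, the mean of a gene's probes, and each array left out. Slides come from the array barcodes, and the wash batch in the labels is the same for all samples. In simulated data of 25603 genes, 200 per comparison were changed by 1 on the log2 scale. Between HFoleic and Ref the fit recovered 177 of these, and between HFepa and Ref 181, none in the wrong direction. The measured data differ, with 31.8% of all genes called in HFoleic vs. Ref. The SD of every leukocyte member was also larger in HFepa (0.42 to 0.85) than in Ref (0.14 to 0.23). The recovered counts therefore check the fit and do not give its sensitivity for the members, above all in comparisons with HFepa. Promoters are from RefSeq on GRCm38.p6. Protein sequences were not used here.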

Additional observations from a re-analysis of the deposited data

Results flagged for a closer look

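Dixon's test for a single outlying mouse was applied to the 9 members in each of the 3 groups, 27 sets in all, of which chance would flag about 1 in 20. It marked 2. Pik3r1 in HFoleic mouse 7 had a log2 intensity of 11.05, and the nearest HFoleic mouse had 10.48, a gap of 0.712 of the range of the group against a critical value of 0.625. Without this mouse the log2 fold change of Pik3r1 in HFoleic vs. Ref was -0.16 in place of -0.04, and it was not called in either fit. Inpp5d in Ref mouse 6 had 8.99, and the nearest Ref mouse had 9.28, a gap of 0.631 of the range. Inpp5d was called higher in HFoleic vs. Ref with and without it.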

How the results depend on the processing

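The 4 rises of leukocyte members in HFoleic vs. Ref and the fall of Pik3cb kept direction and call under the 13 other settings and with each array left out. Over all member fold changes, 327 of 351 values under other settings and 505 of 540 with an array left out kept direction and side of the threshold. The cause of the shifts below was not tested.

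The number of members called in HFepa vs. HFoleic was 0. It was 1 with a slide block (3.17% of all genes called) and 5 with array weights (11.4%). With an array left out it was 0 to 4, 4 being without HFepa mouse 1 (7.72%). In HFepa vs. Ref it was 1. It was 0 with the replicate block (0.0664% of all genes called), the compared groups only (0.425%) and the mean of all probes (2.39%). With an array left out it was 0 to 1. The pathway genes called in HFepa vs. HFoleic were 0 of 88. They were 2 with a slide block (3.17% of all genes called) and 17 with array weights (11.4%). With an array left out they were 0 to 14, 14 being without HFepa mouse 1 (7.72%) and 4 without HFoleic mouse 1 (4.36%). In HFepa vs. Ref they were 1. They were 0 with the replicate block (0.0664% of all genes called), 2 with array weights (3.97%) and 0 with the compared groups only (0.425%). With an array left out they were 0 to 4, 4 being without HFepa mouse 3 (7.03%). In HFoleic vs. Ref they were 41 (31.8% of all genes called), and 25 with the replicate block (21.1%).

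Same-numbered mice were not steadily alike, with correlations of their deviations from -0.58 to 0.56. Over 0.1 were 2 of 4 pairs in HFoleic with Ref, 1 of 6 in HFepa with Ref and 2 of 6 in HFepa with HFoleic. These values cannot show whether mice of the same replicate number are linked by design. The replicate block lowered the share of all genes called to 21.1% in HFoleic vs. Ref and 0.0664% in HFepa vs. Ref, and under it Pik3cb (-0.62, adjusted p = 0.0995 in HFepa vs. Ref) and Pik3r3 (-0.44, adjusted p = 0.118 in HFoleic vs. Ref) were not called.

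Log2 fold changes near 0 changed sign and none of them was called. Pik3r1 had 0.0036 with median centring, 0.0309 with the replicate block and 0.0189 with array weights in HFoleic vs. Ref, 0.048 with array weights in HFepa vs. Ref and 0.0291 with array weights in HFepa vs. HFoleic. Pik3r3 in HFepa vs. Ref had -0.0096 with the replicate block and -0.0409 with array weights. With an array left out, Pik3r1 ran from -0.1594 to 0.0644 in HFoleic vs. Ref, -0.1512 to 0.0345 in HFepa vs. Ref and -0.0766 to 0.0853 in HFepa vs. HFoleic, Pik3r3 from -0.10 to 0.10 and Pik3ca from -0.20 to 5e-04, both in HFepa vs. Ref.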
